A study of Homo sapiens with 6 samples.

Results

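The histone lysine demethylases examined here are 10 genes: KDM1A, KDM1B, KDM3A, KDM3B, KDM4A, KDM5A, KDM5B, KDM5C, KDM6A and KDM6B. They were taken by name, with earlier results of these data known, out of the 19775 genes that the array, the Affymetrix U133 Plus 2.0, measured. A probe set is a group of short oligonucleotides on the array that reads 1 transcript or a few. All probe sets that the array annotation ties to exactly 1 of these genes were kept, which gave 30. The arrays profiled drug-tolerant persisters (DTPs) and parental PC9 cells. PC9 is an EGFR-mutant lung adenocarcinoma line that depends on this receptor kinase, and both groups came from a PC9 line stably carrying a GFP vector. The 3 DTP arrays held RNA from cells kept in 2 µM erlotinib, an EGFR kinase inhibitor, for 9 days and harvested on day 10. The 3 parental arrays held RNA from cells given DMSO. By the sample labels the parental cells were harvested at full confluency on day 3, whereas the methods of the study give both arms the same number of days, so drug, days in culture and density cannot be told apart. DTPs are also a surviving fraction of the treated culture, and bulk RNA does not separate survival of cells that already differed from change inside each cell.

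Lysine demethylases remove methyl groups from histone tails. KDM1A and KDM1B are flavin-dependent amine oxidases that act on mono- and dimethylated lysine 4 of histone H3 (H3K4). The other members hold a JmjC domain and need iron, oxygen and 2-oxoglutarate. The KDM3 enzymes act on H3K9, KDM4A on H3K9 and H3K36, the KDM5 enzymes on H3K4, and the KDM6 enzymes on H3K27. Methylation of H3K4 marks active promoters, and methylation of H3K9 and H3K27 marks silent chromatin. KDM5A has been tied to reversible drug tolerance in earlier work on this cell line, so the family is of interest in these arrays.

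For each gene, the value used was that of its brightest probe set outside the class that Affymetrix marks as prone to cross-hybridisation. A gene was called when its adjusted p in limma was under 0.05 and its fold over 1.5. By this rule 1 of the 10 genes, KDM1B, rose in DTPs, and 0 of the 10 fell. Over all genes the rule called 8.08% higher and 6.13% lower. By the adjusted p alone, 9 of the 10 genes differed, 6 higher and 3 lower, where 44.5% of all genes did so (20.4% higher and 24.0% lower). Thus 8 of the 9 genes past the adjusted p differed by less than 1.5-fold. The median absolute log2 difference of the 10 genes was 0.30, against 0.17 over all genes, and their median signed difference was 0.25, against -0.05 over all genes. These shares and medians over all genes were not matched for level. In 0 of the 10 genes were both group means under the median over all probe sets and arrays, against 6670 of the 19775 genes. With dim genes left out, 7596 of 12714 genes passed the adjusted p, and 9 of the 10 members.

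**Figure D1:**
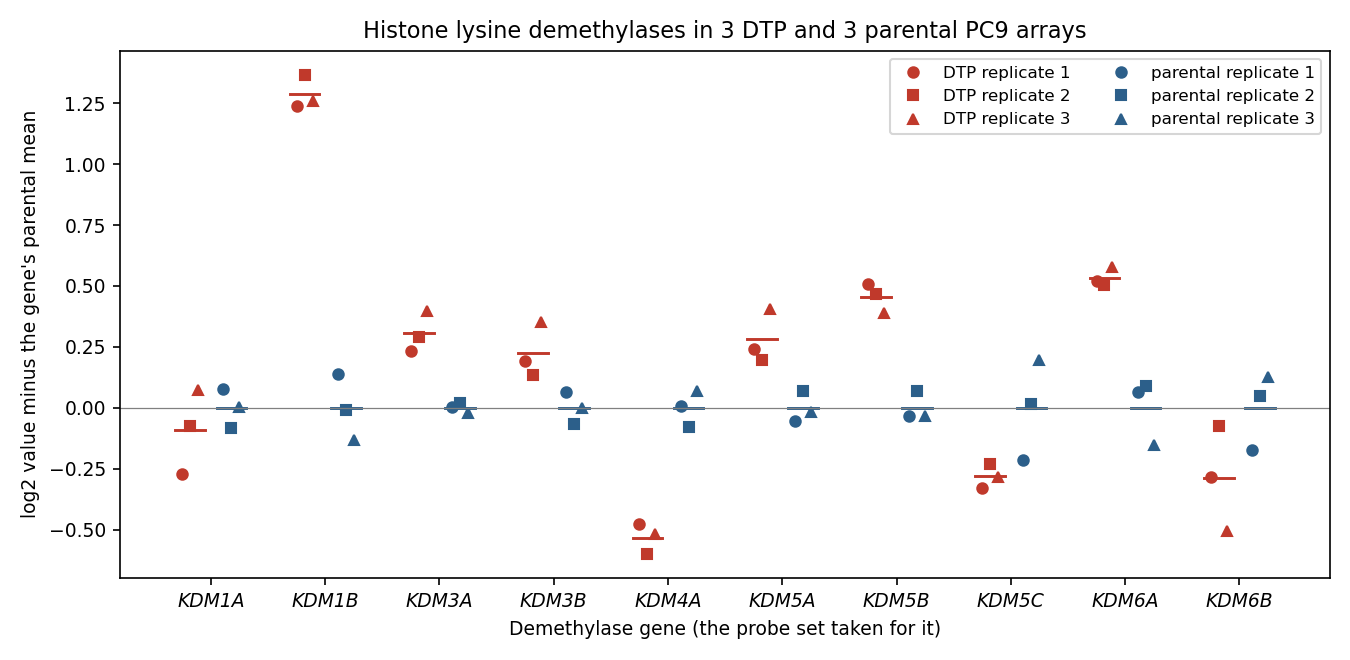
Log2 value of the 10 demethylase genes on each of the 3 DTP arrays (red) and 3 parental arrays (blue), as the difference from the gene's parental mean, with bars at the group means. KDM1B stands 1.29 above its parental mean, KDM4A lies 0.53 below it (-0.53), and KDM1A and KDM6B overlap between the groups.

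The promoter sequences of the gene with the largest rise, KDM1B, and of the gene with the largest fall, KDM4A, are shown as the ends of the family by size of change. Each is the stretch of 250 bases before the gene's start in RefSeq (GRCh38.p14, plus strand), written 5′ to 3′. KDM1B lies on chromosome 6 (chr6:18155172-18155421) and KDM4A on chromosome 1 (chr1:43649899-43650148). Capitals mark GC boxes (GGGCGG on either strand) and CCAAT boxes (CCAAT on either strand).
KDM1B: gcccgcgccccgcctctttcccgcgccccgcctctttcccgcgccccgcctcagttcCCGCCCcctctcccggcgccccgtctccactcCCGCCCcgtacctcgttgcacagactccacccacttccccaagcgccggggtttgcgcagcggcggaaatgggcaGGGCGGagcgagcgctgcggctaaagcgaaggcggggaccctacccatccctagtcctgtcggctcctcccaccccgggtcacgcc
KDM4A: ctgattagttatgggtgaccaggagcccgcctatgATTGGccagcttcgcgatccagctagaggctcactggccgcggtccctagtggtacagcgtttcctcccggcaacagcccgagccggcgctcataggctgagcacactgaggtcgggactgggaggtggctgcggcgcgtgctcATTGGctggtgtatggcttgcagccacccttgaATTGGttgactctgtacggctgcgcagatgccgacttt
The KDM1B stretch holds 3 GC boxes and 0 CCAAT boxes, and the KDM4A stretch holds 0 GC boxes and 3 CCAAT boxes. All 10 genes matched at least 1 RefSeq promoter, 12 promoters in all. A GC box was found for 8 of the 10 genes, all but KDM4A and KDM5C. By promoter, it was found in 9 of the 12, against 42.6% of 35116 RefSeq promoters. GC content was 73.6% for KDM1B and 61.2% for KDM4A, against a median of 58% over all promoters, and was not matched. A CCAAT box was found for 4 of the 10 genes (KDM3A, KDM3B, KDM4A and KDM6A), in 5 of the 12 promoters, and in 32.0% of all promoters. Genes with a CCAAT box thus include KDM4A, which fell, and KDM3A, KDM3B and KDM6A, which rose. Genes with a GC box include KDM1B, which rose, and KDM6B, which was lower. Whether an element goes with the direction of change was not tested. The E-box CACGTG, a motif bound by MYC, was found for KDM6A alone, in 1 of the 12 promoters, against 6.34% of all promoters. These are matches of letters, and binding was not measured.

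KDM1B, also called LSD2, is the flavin-dependent enzyme that works with the reader protein GLYR1 within transcribed genes. Its probe set 227021_at read 9.16, 9.29 and 9.19 log2 units on the DTP arrays, against 8.07, 7.92 and 7.80 on the parental arrays. The lowest DTP array lay more than 1 log2 unit above the highest parental array. DTPs averaged 9.22 ± 0.07 and parental cells 7.93 ± 0.14 (SD, n = 3 each), a difference of 1.29 (SE 0.08, 95% CI 1.11 to 1.46), or 2.44-fold, with an adjusted p of 4.70e-08 in limma. The absolute difference was larger than that of 96.6% of all genes. The second KDM1B probe set, 1553150_at, read 7.73, 7.75 and 7.77 in DTPs against 6.78, 6.75 and 7.02 in parental cells, a 1.87-fold rise with an adjusted p of 4.58e-06 in limma over all probe sets. Both KDM1B probe sets were called, and neither overlapped between the groups. The 3 genes whose pattern over the 6 arrays lay nearest to KDM1B were the microtubule-associated gene MAP9 (Euclidean distance 0.13 log2 units after centring each gene), the peroxisomal thiolase gene ACAA1 (0.13) and the glycosyltransferase gene POMGNT1 (0.15). They differed by 1.36, 1.31 and 1.26 log2 units between DTPs and parental cells.

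KDM1A, also called LSD1, is the close relative of KDM1B and the catalytic subunit of the CoREST repressor complex. Its only probe set, 212348_s_at, read 11.69, 11.89 and 12.03 in DTPs, against 12.04, 11.88 and 11.97 in parental cells. The groups overlapped, with a parental array highest of the 6. The difference of -0.09 (SE 0.09, 95% CI -0.28 to 0.10, adjusted p = 0.439 in limma) did not pass the test, and its sign turned under 2 other ways of centring the arrays (0.05 and 0.06). The interval excludes a 1.5-fold difference in either direction.

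KDM3A and KDM3B remove mono- and dimethylation from H3K9, and KDM3A is also known as a hypoxia-induced gene. The KDM3A probe set 212689_s_at read 10.50, 10.55 and 10.66 in DTPs, against 10.26, 10.28 and 10.24 in parental cells. All DTP values were above all parental values, and the rise was 0.31 log2 units (SE 0.07), or 1.24-fold, with an adjusted p of 0.00260 in limma. The other KDM3A probe set, 242758_x_at, averaged 4.73 ± 0.20 in DTPs and 4.91 ± 0.11 in parental cells (SD, n = 3 each). These levels were under 7.29, the median over all probe sets and arrays, and the difference was -0.18 (adjusted p = 0.189 in limma). When the probe sets of a gene were averaged, KDM3A differed by 0.06 and did not pass (adjusted p = 0.403).

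KDM3B read 10.39, 10.33 and 10.55 in DTPs on 210878_s_at, against 10.27, 10.13 and 10.20 in parental cells. The groups did not overlap, with DTP replicate 2 lying closest to the parental arrays. The second KDM3B probe set, 201643_x_at, averaged 10.47 ± 0.07 in DTPs and 10.30 ± 0.07 in parental cells (SD, n = 3 each), a difference of 0.17 (adjusted p = 0.0927 in limma over all probe sets). At the gene level KDM3B rose by 0.23 (adjusted p = 0.0284 in limma), and it no longer passed the adjusted p when DTP replicate 3 (0.0782), parental replicate 2 (0.105) or parental replicate 3 (0.0601) was left out.

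KDM4A demethylates trimethylated H3K9 and H3K36, and it was the member that fell most. Its probe set 203204_s_at read 9.53, 9.41 and 9.49 in DTPs, against 10.02, 9.93 and 10.08 in parental cells. Every DTP array lay far below every parental array beside the spread within the groups. The fall was -0.53 (SE 0.07, 95% CI -0.68 to -0.38), 1.45-fold, with an adjusted p of 4.25e-05 in limma, so KDM4A passed the adjusted p and stayed just under the fold minimum. The second probe set, 203205_at, read 8.29, 8.42 and 8.41 in DTPs against 8.68, 8.77 and 8.75 in parental cells, a fall of -0.36 with an adjusted p of 0.00167. The groups did not overlap on either KDM4A probe set.

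The KDM5 enzymes remove di- and trimethylation from H3K4 and so act on the mark of active promoters. KDM5A, first known as a binding partner of the retinoblastoma protein, read 10.12, 10.08 and 10.29 in DTPs on 202040_s_at, against 9.83, 9.95 and 9.87 in parental cells. The difference of 0.28 log2 units had a 95% CI of 0.12 to 0.45. The other KDM5A probe sets gave larger or smaller differences of the same sign, between 0.17 and 0.50. The largest came from 215698_at, with 9.57, 9.35 and 9.74 in DTPs against 8.93, 9.16 and 9.07 in parental cells (adjusted p = 0.00206 in limma). All 5 KDM5A probe sets were higher on average in DTPs, 3 of the 5 passed the adjusted p, 0 of the 5 were called, and 4 of the 5 did not overlap between the groups.

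KDM5B, a second H3K4 demethylase often found at high levels in breast cancer, was also higher in DTPs. On 201548_s_at it read 11.08, 11.04 and 10.96 in DTPs, against 10.54, 10.64 and 10.53 in parental cells. The groups did not overlap, and the rise was 0.45 log2 units (SE 0.07, 95% CI 0.31 to 0.60), 1.37-fold, with an adjusted p of 0.000133 in limma. All 5 KDM5B probe sets were higher on average in DTPs, and 3 of the 5 passed the adjusted p. The smallest difference, 0.06 (adjusted p = 0.557 in limma), was on 201547_at, which averaged 5.20 ± 0.04 in DTPs and 5.14 ± 0.11 in parental cells (SD, n = 3 each), below the median of all probe sets.

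KDM5C, the X-linked member of the KDM5 group, had probe sets that differed in opposite directions. On 202383_at, the brighter one, DTPs read 8.63, 8.73 and 8.68 against 8.75, 8.97 and 9.16 in parental cells, a fall of -0.28 (adjusted p = 0.0274 in limma at the gene level). The parental arrays were widely spread here, and the lowest of them lay next to the DTP arrays. On 239207_at, DTPs read 7.28, 7.35 and 7.49 against 7.22, 7.15 and 7.07 in parental cells, a rise of 0.23 (adjusted p = 0.0402 in limma over all probe sets). Neither probe set overlapped between the groups. The log2 ratio of 202383_at over 239207_at within an array averaged 1.31 in DTPs and 1.81 in parental cells, a difference of -0.51 (exact permutation test, two-sided, p = 0.10, the smallest that 3 against 3 allows). This ratio was examined after the values were seen. Since neither probe set overlapped and they ran in opposite directions, its p could only be 0.10, and it adds nothing to them. KDM5C therefore has no single direction in these arrays: its gene-level fall rests on 1 probe set, it came to -0.03 when both were averaged (adjusted p = 0.736), and it did not pass the adjusted p without DTP replicate 1 (0.0826), DTP replicate 3 (0.0802), parental replicate 2 (0.0590) or parental replicate 3 (0.122).

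**Figure D2:**
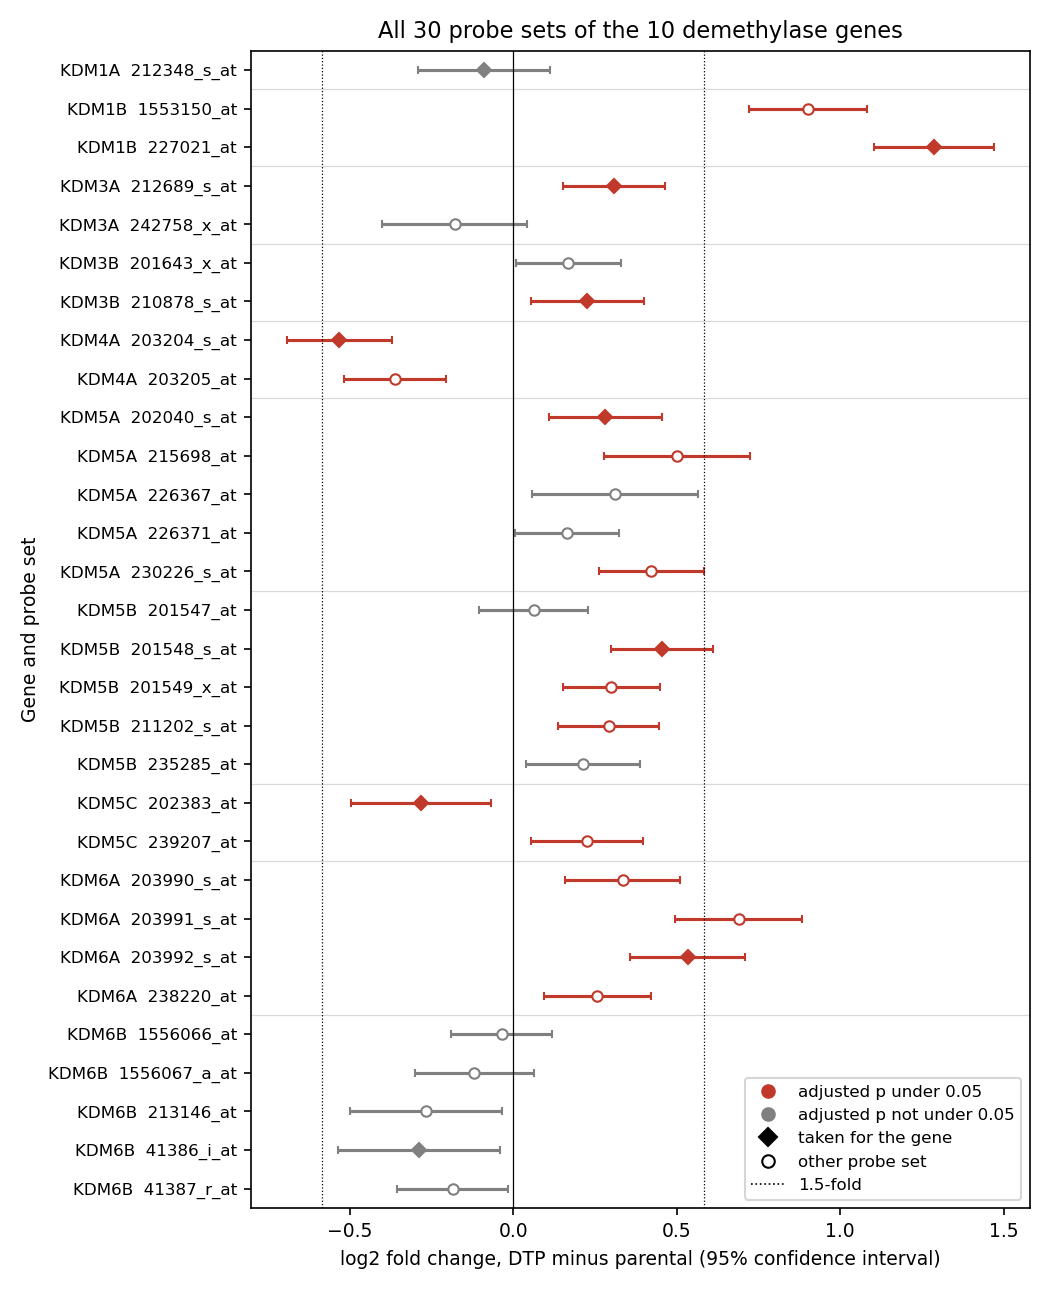
Log2 fold change, DTP minus parental, with its 95% confidence interval for each of the 30 probe sets of the 10 genes. Red marks an adjusted p under 0.05, diamonds mark the probe set taken for the gene, and dotted lines mark 1.5-fold. The 2 KDM5C probe sets lie on opposite sides of 0, and 3 probe sets, those of KDM1B and 203991_s_at of KDM6A, were called higher.

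KDM6A, also called UTX, and KDM6B, also called JMJD3, both remove methylation from H3K27. KDM6A read 8.43, 8.41 and 8.48 in DTPs on 203992_s_at, against 7.97, 7.99 and 7.75 in parental cells. The DTP arrays lay close together and above all parental arrays, with a rise of 0.53 (SE 0.08, 95% CI 0.37 to 0.70), 1.45-fold, and an adjusted p of 9.48e-05 in limma. The probe set 203991_s_at read 6.62, 6.60 and 6.73 in DTPs against 6.12, 5.97 and 5.80 in parental cells, a 1.61-fold rise that was called (adjusted p = 7.25e-05). All 4 KDM6A probe sets passed the adjusted p and did not overlap between the groups, with differences of 0.26 to 0.69. The smallest was on 238220_at, which averaged 4.88 in DTPs and 4.63 in parental cells, below the median of all probe sets. When the most variable probe set stood for each gene, KDM6A was itself called, at 0.69, on 203991_s_at, whose group means of 6.65 in DTPs and 5.96 in parental cells were both under 7.29, the median over all probe sets and arrays.

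KDM6B, which is induced by inflammatory signals in macrophages, ran the other way. Its probe set 41386_i_at read 9.88, 10.09 and 9.66 in DTPs, against 9.99, 10.21 and 10.29 in parental cells. The groups overlapped, since DTP replicate 2 lay above parental replicate 1. The difference of -0.29 (SE 0.11, 95% CI -0.52 to -0.05) had an adjusted p of 0.0472 in limma over all genes. All 5 KDM6B probe sets were lower on average in DTPs, by -0.29 to -0.04, and 0 of the 5 passed the adjusted p over all probe sets, the smallest being 0.0640. KDM6B had the largest spread within groups of the 10 genes, larger than that of 96.5% of all genes, and it lost its adjusted p without DTP replicate 3 (0.207), DTP replicate 1 (0.0935), parental replicate 2 (0.101) or parental replicate 3 (0.146).

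Over the probe sets together, 3 of 30 were called higher and 0 of 30 lower, against 7.56% and 4.93% of all 54613 probe sets. By the adjusted p alone 15 of 30 were higher and 3 of 30 lower, against 18.6% and 20.1% of all probe sets. In 18 of 30 probe sets all DTP values lay above all parental values, and in 4 of 30 all lay below, against 22.4% and 27.5% of all probe sets. Probe sets of 1 gene read transcripts of that same gene and are not independent. Over both directions 18 of 30 passed the adjusted p, against 38.7% of all probe sets, and 22 of 30 did not overlap, against 49.9%. These shares were not matched for level: 6 of the 30 had both group means under the median over all probe sets and arrays. With dim probe sets left out, 15844 of 27344 passed the adjusted p. Only 23 of the 30 were left in that fit, so 18 of 30 is not over a like set. Among the genes, 8 of 10 did not overlap between the groups, against 53.7% of all genes. In 6 of 10 genes all DTP values lay above all parental values (23.9% of all genes), and in 2 of 10 all lay below (29.8%).

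Since the enzymes of a subfamily act on the same residue, the ratio of their values within each array was compared for 6 pairs, chosen after the values of the genes were seen. The level of such a ratio depends on the probes, so only its change between the groups is read. The log2 ratio of KDM6A over KDM6B was -1.46, -1.69 and -1.18 in DTPs, against -2.02, -2.22 and -2.54 in parental cells. The groups did not overlap, and the mean ratio was 0.82 log2 units higher in DTPs. The ratio of KDM1B over KDM1A was 1.38 higher in DTPs, that of KDM5B over KDM5C 0.74 higher and that of KDM5A over KDM5C 0.56 higher, again with no overlap. For the KDM5C pairs this was fixed beforehand, as KDM5A and KDM5B rose without overlap and 202383_at of KDM5C fell without overlap. Their exact permutation p could therefore only be the smallest possible, and it adds nothing to the genes taken singly. The KDM5C ratios rest on its falling probe set: against 239207_at they were 0.23 higher for KDM5B (exact permutation p = 0.20) and 0.06 higher for KDM5A (exact permutation p = 0.50), both with overlapping groups. For each of these 4 pairs, on the probe sets taken for the genes, the exact two-sided permutation p was 0.10, the smallest that 3 against 3 allows, and 0.15 after adjustment over the 6 pairs. The ratio of KDM3A over KDM3B differed by 0.08 and that of KDM5A over KDM5B by -0.17, both with overlapping groups (exact permutation p = 0.30, adjusted over the pairs 0.30).

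**Figure D3:**
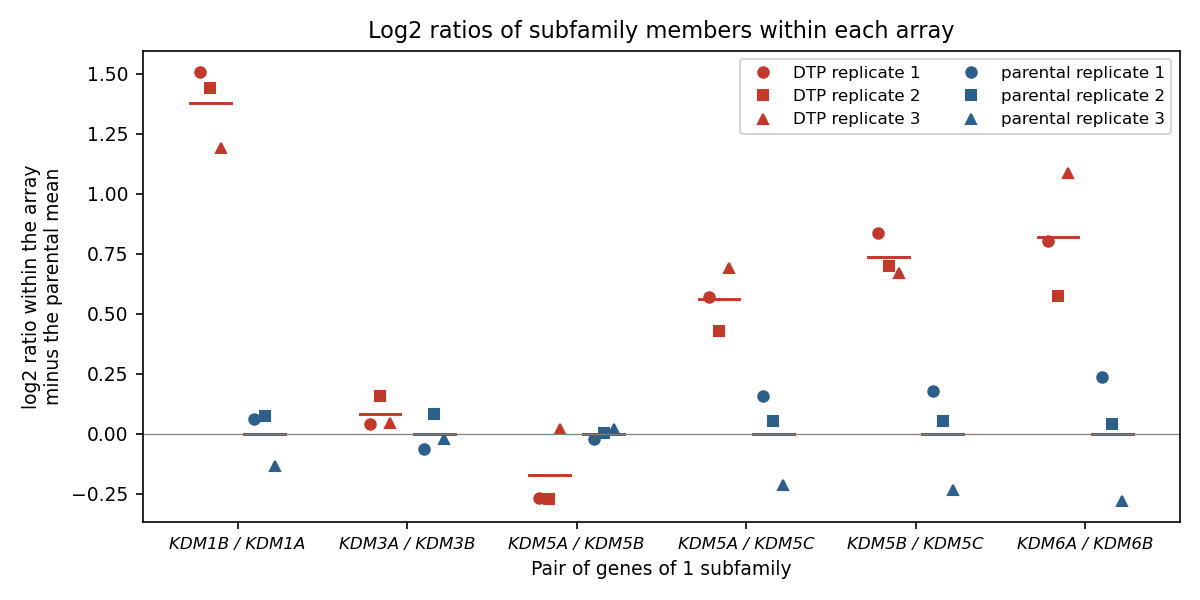
Log2 ratio of 2 genes of a subfamily within each array, as the difference from the parental mean of that ratio, for 3 DTP arrays (red) and 3 parental arrays (blue), with bars at the group means. The groups are apart for KDM1B over KDM1A (1.38), KDM5A over KDM5C (0.56), KDM5B over KDM5C (0.74) and KDM6A over KDM6B (0.82), and overlap for the other 2 pairs. For the KDM5C pairs the separation follows from the genes taken singly. With the other KDM5C probe set the KDM5C ratios came to 0.06 and 0.23, with overlapping groups.

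The array scale bears on the smaller of these differences. Centring on 20 ribosomal protein genes moved every gene by about 0.14 log2 units towards DTPs and centring on 18 spike-in probe sets by about 0.15. After the first, KDM5B (0.59) and KDM6A (0.67) were called beside KDM1B, and after the second as well (0.60 and 0.68). KDM5C and KDM6B kept a negative sign under both and no longer passed the adjusted p (0.264 and 0.330 with ribosomal protein genes, 0.449 and 0.422 with spike-ins). KDM1B was called, and KDM4A was lower and past the adjusted p, under all of the alternatives run. Ratios within an array are not touched by such a shift. The ribosomal protein genes used for centring were not level between the groups: 6 of the 20 passed the adjusted p lower and 0 higher. The spike-in mean varied between arrays of a group, with an SD of 0.11 in DTPs and 0.10 in parental cells.

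A further 15 genes of the JmjC family were measured beside the members. Of these, 1 was called higher, 1 lower and 13 neither, and by the adjusted p alone 6 were higher and 8 lower, with a median difference of -0.23. The gene called higher was JMJD6, a lysyl hydroxylase of splicing factors (0.67, adjusted p = 1.68e-05 in limma), and the gene called lower was PHF2, a KDM7 relative that acts on H3K9 (-0.62, adjusted p = 5.93e-05). For both, another probe set of the gene had the opposite sign. Neither was called with the mean over probe sets, and PHF2 was not called without DTP replicate 1 or under either centring. The nearest relatives of KDM4A differed in both directions on the probe sets used, with KDM4B higher by 0.28 and KDM4C and KDM4D lower (-0.33 and -0.23). For KDM4B 5 of the 8 probe sets were positive and 3 passed the adjusted p, with a mean over the 8 of 0.08. For KDM4C 1 of the 4 probe sets was positive. The H3K36 demethylases KDM2A and KDM2B were higher, by 0.53 and 0.42, with all 4 of their probe sets past the adjusted p. JMJD1C, a relative of KDM3A and KDM3B, was lower (-0.52), as were KDM7A (-0.52), RIOX2 (-0.47), HR (-0.43) and KDM8 (-0.31), although 2 of the 3 KDM8 probe sets were positive. RIOX1 (0.37) and JARID2 (0.27), a catalytically silent relative of the KDM5 enzymes, were higher.

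**Figure D4:**
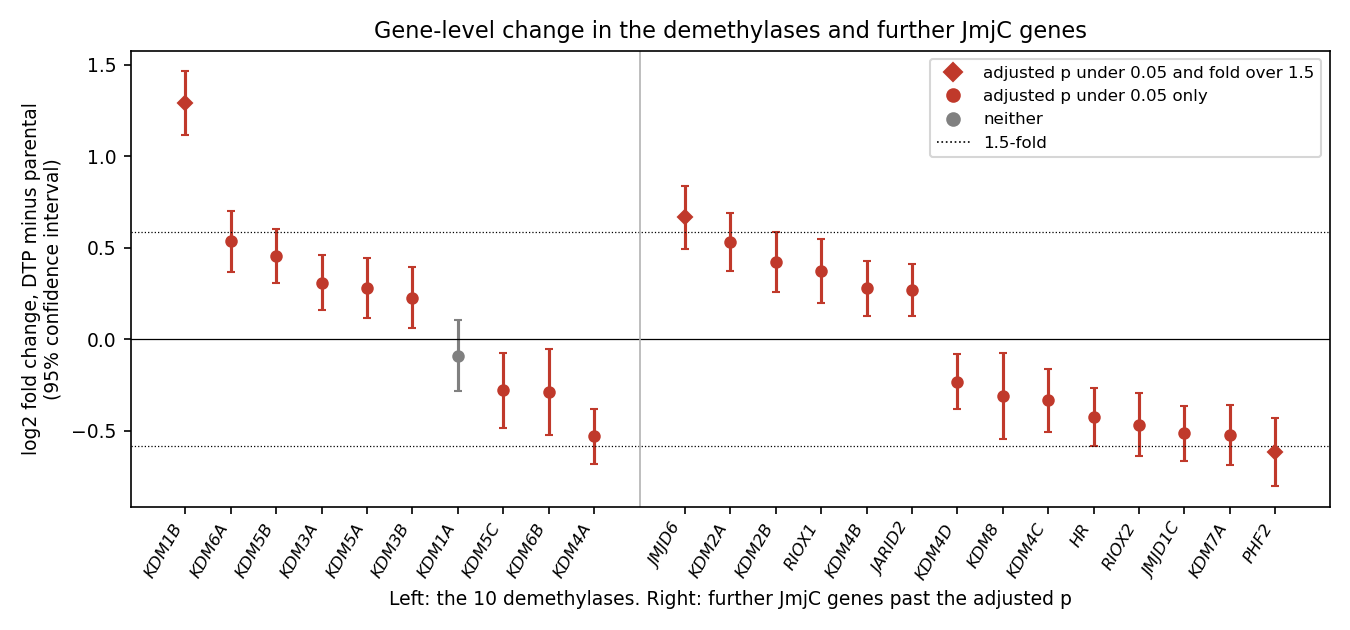
Gene-level log2 fold change, DTP minus parental, with its 95% confidence interval for the 10 demethylases (left) and for the 14 further JmjC genes past the adjusted p (right). Diamonds mark genes also past 1.5-fold, drawn as dotted lines: KDM1B (1.29), JMJD6 (0.67) and PHF2 (-0.62).

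Among 14 measured partners of the LSD1 group, RCOR1, the CoREST scaffold that holds KDM1A on nucleosomes, fell (-0.67, adjusted p = 3.08e-06 in limma) and ZMYM3 rose (0.59, adjusted p = 1.38e-05), with 12 called neither way. RCOR1 was not called under either centring, ZMYM3 lost its call with array weights and when any of 3 arrays (parental replicate 3, parental replicate 2, DTP replicate 1) was left out, and neither was called with the mean over probe sets. Of 8 genes listed as partners of the KDM5 enzymes, SIN3B, a corepressor scaffold, rose (0.66) and MYC, a transcription factor, fell (-1.40), with 6 called neither way. SIN3B was not called with the mean over probe sets (0.52). None of the 9 measured genes of the KDM6A complex was called, and those with the smallest p were NCOA6 (-0.48) and KMT2C (0.39). These lists stand beside 8.08% called higher and 6.13% called lower over all genes.

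The enzymes that write the marks were counted in the same way. Of 9 H3K4 methyltransferases, SMYD2 rose (1.51, 2.85-fold) and 8 were called neither way. For SMYD2 2 of the 3 probe sets were positive, with a mean over them of 0.95. Of 6 H3K9 enzymes SETDB2 fell (-0.79), with 3 of its 6 probe sets positive and a mean over them of -0.16. Of 4 H3K36 enzymes NSD2 fell (-0.61), with 1 of its 6 probe sets positive. It was not called without DTP replicate 1, under either centring, with cyclic loess or with the mean over probe sets. None of the 9 genes of the H3K27 complex was called on the probe set used, the smallest p belonging to MTF2 (0.55) and EED (0.51), although 4 of the 5 MTF2 probe sets and 1 of the 2 EED probe sets were called.

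The JmjC enzymes consume 2-oxoglutarate. Of 14 measured genes of its metabolism 3 were called lower and 0 higher, against 6.13% and 8.08% of all genes. The 3 lower genes were the aspartate aminotransferase GOT1 (-1.89, 3.69-fold), the isocitrate dehydrogenase IDH1 (-0.77) and the glutamate dehydrogenase GLUD1 (-0.72). IDH1 was not called with the mean over probe sets, and GLUD1 was not called with spike-in centring. By the adjusted p alone 4 of the 14 were higher and 5 lower, with a median of -0.05, as over all genes. Of 14 hypoxia-induced genes, 3 rose and 3 fell, with EGLN3 (1.76) and ANKRD37 (1.36) higher and NDRG1 (-1.97) and VEGFA (-1.82) lower, so the list had no single direction beside KDM3A. For ANKRD37 1 of the 2 probe sets was positive, with a mean over them of 0.60. Of 12 genes read as output of the ERK pathway downstream of EGFR, 10 fell and 0 rose, with a median of -2.10, led by EGR1 (-4.71), DUSP6 (-4.46), ETV5 (-3.10) and PHLDA1 (-2.72). Of 14 proliferation genes, 5 fell, among them BUB1 (-0.96), AURKA (-0.83), PLK1 (-0.75) and CDK1 (-0.69), the last not called without DTP replicate 2 or parental replicate 1 or under either centring. Whether any of these differences had a part in those of the demethylases was not tested.

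Of 8 epithelial line markers, 1 rose (KRT7, 0.97, on the 1 of its 4 probe sets that passed, with a mean over them of 0.38) and 0 fell, and in 0 of the 8 were both group means under 7.29, the median over all probe sets and arrays. Of 6 measured blood cell markers 0 were called, with LYZ (-0.31) and CD14 (0.34) having the smallest p, and in 5 of the 6 both group means were under that median. Of 4 endothelial markers PECAM1 fell (-0.69, not called under either centring). Of 8 fibroblast markers COL1A1 rose (2.67, with 4 of its 5 probe sets positive) and 7 were called neither way. None of the 20 ribosomal protein genes was called, the smallest p belonging to RPL3 (-0.37) and RPL22 (-0.39). By the adjusted p alone 6 of the 20 were lower and 0 higher, with a median of -0.11. The log2 difference of the 3′ and 5′ control probe sets, which is larger where RNA is degraded, averaged -0.18 in DTPs and -0.15 in parental cells for GAPDH, and 0.06 in DTPs and 0.17 in parental cells for ACTB (exact permutation p = 0.10 for each). The part of these values in the demethylase differences was not tested. Arrays of 1 group correlated at 0.9968 to 0.9979 and arrays of different groups at 0.9701 to 0.9754 over all probe sets.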

How the data were processed

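RNA of 3 DTP and 3 parental PC9 samples was hybridised to 1 array each. The deposited values are log2 probe set summaries made by the authors with RMA in the affy package (versions not given in the sources used here), which corrects background, quantile normalises and summarises probes. Quantile normalisation gives each array the same distribution, so a shift shared by all genes cannot be seen. No genome build was named. Of 54613 probe sets other than controls, 41091 had 1 gene symbol, 1801 several and 11721 none, and the 41037 with a known gene ID were checked against RefSeq symbols.

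Groups were compared in R 4.3.3 with limma 3.58.1 (lmFit and eBayes, two-sided, Benjamini-Hochberg over all 19775 genes or all 54613 probe sets), at the study's thresholds of 0.05 for the adjusted p and 1.5 for the fold. Differences are DTP minus parental. A gene's value was its probe set with the highest mean, probe sets with the suffix x being taken only where no other existed. Samples took their group from the labels. The methods describe the study's replicates in general as biological, from several experiments, and the labels do not say how these samples were replicated, so p-values measure only the spread between them. The number of arrays limits the precision. The fit was tested on simulated data. The alternatives were a replicate block, each array left out, ribosomal protein or spike-in centring, cyclic loess, dim features left out, the mean or the most variable probe set, array weights, robust variances with an intensity trend, and Student's t-test, which the methods name for the study's figures, while they name limma for the arrays.

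The members and the lists were chosen with earlier results of these data known. Named in the text are all members and their probe sets, the further JmjC genes past the adjusted p, up to 4 called genes of each other list by size of change or the 2 with the smallest p, and the 3 genes nearest to each called member.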

Additional observations from a re-analysis of the deposited data

How the results depend on the processing

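KDM1B was called higher under all alternatives run. The number of the 10 genes called higher was 1, and it was 3 with ribosomal protein centring, 3 with spike-in centring and 2 with the most variable probe set. Probe sets called higher numbered 3, and 6 under either centring, 4 without DTP replicate 2, and 2 of the 23 left with dim features removed. No member was called lower under any alternative. The number of genes past the adjusted p was 9, and 5 with Student's t-test after Benjamini-Hochberg and between 6 and 9 with 1 array left out. The sign turned only under these ways of centring: KDM1A came to 0.048 with ribosomal protein genes and 0.057 with spike-ins, KDM6B 1556066_at to 0.10 and 0.11, and KDM6B 1556067_a_at to 0.019 and 0.028. Past both thresholds under an alternative and not before it were 5 gene values and 7 probe set values, all of them higher in DTPs. One of these, KDM5A 215698_at, passed it without DTP replicate 2 (0.60).

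Same-numbered arrays did not deviate together (correlations of -0.13, 0.08 and -0.05), against -0.12 to 0.17 for arrays of other numbers. With so few arrays these correlations cannot settle whether the samples were paired. With a replicate block, 1 gene was called higher, 0 lower and 9 past the adjusted p.

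The difference of KDM3B, KDM5C and KDM6B from 0 is close to what 3 arrays a group can resolve. Their adjusted p ran over the alternatives from 0.00169 to 0.105 for KDM3B, 0.00285 to 0.736 for KDM5C and 0.0105 to 0.422 for KDM6B. KDM5A passed under all alternatives except Student's t-test (0.0538). DTP replicate 3 had the lowest array weight, 0.388. The use of the other KDM5C probe set in the ratios was chosen after seeing the data.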
